A study of Mus musculus with 8 samples.

Results

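The apolipoprotein genes measured here were Apoa1, Apoa2, Apoa4, Apoa5, Apob, Apoc1, Apoc3, Apoe, Apoh and Apom. These 10 genes were taken by symbol from the 19348 genes of the table. They and the gene lists below were chosen with earlier results of these data known. RNA-seq was performed on a piece of liver and a piece of epididymal white adipose tissue (eWAT) from male C57BL/6 mice aged 12 weeks, kept on a normal diet and killed after a 16 h fast. In each tissue 2 libraries were labelled Crtc1-/- and 2 were labelled Crtc1+/+, 8 libraries in all. The Crtc1-/- mice belong to 1 CRISPR/Cas9 line, made with guides against exons 2 and 4 and lacking Crtc1 in the whole body, and the Crtc1+/+ mice were their wild-type littermates. Crtc1 is a coactivator of the cAMP-responsive factor CREB, and the study asked how its loss changes lipid metabolism in the liver and white fat. The study describes the libraries of a group as independent biological replicates, and the labels do not tell whether a liver and an eWAT library sharing a replicate number are from 1 mouse. It reports selecting 2 Crtc1-/- mice and Crtc1+/+ mice and taking both tissues, so liver and eWAT libraries may share mice. The main fits between tissues and of the interaction treat the libraries as independent.

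Apolipoproteins are the protein components of the particles that carry triglyceride and cholesterol in blood. Apob is the structural protein of very low density lipoprotein and chylomicrons, whereas Apoa1 and Apoa2 build high density lipoprotein (HDL). The smaller exchangeable members move between particles and set how fast lipoprotein lipase empties them or how they are taken up by receptors. The hepatocyte is the main source of most of them, and Apoe is also made by macrophages and adipocytes.

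The members lie at 6 places in the mouse genome (GRCm38.p6, RefSeq gene bounds). Apoa1 (chr9:46228630-46230469), Apoc3 (chr9:46233050-46235636), Apoa4 (chr9:46240844-46243458) and Apoa5 (chr9:46268608-46271921) are neighbours within 43.3 kb of chromosome 9. Apoc1 (chr7:19689480-19692659) and Apoe (chr7:19696244-19701310) are 3584 bp apart on chromosome 7. Apoa2 is on chromosome 1 (chr1:171221564-171226379), Apob on chromosome 12 (chr12:7977629-8016839), Apoh on chromosome 11 (chr11:108395297-108414396) and Apom on chromosome 17 (chr17:35128997-35131801). In the GENCODE annotation Apoa4, Apoa5 and Apoh overlap another annotated gene, and because the strand setting of the counting was not given, reads of overlapping partners cannot be told apart there. RefSeq promoter entries were matched for 8 of the 10 members. Apoc1 and Apoc3 had none.

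The stretches before the start sites of 4 members are shown because they are the ones in which a forkhead-type motif was found upstream of both the RefSeq and the GENCODE start. Capitals mark matches, on either strand, to the forkhead-type motifs TGTTTAC and TGTTTGC or to the cAMP response element core TGACG, which is also contained in the full element TGACGTCA. The stretches are chr9:46228380-46228579 for Apoa1, chr1:171224804-171225053 for Apoa2, chr9:46268358-46268607 for Apoa5 and chr12:7977427-7977628 for Apob, all on the plus strand. The Apoa2 stretch precedes the start common to both annotations and lies inside a longer RefSeq gene model.
Apoa1: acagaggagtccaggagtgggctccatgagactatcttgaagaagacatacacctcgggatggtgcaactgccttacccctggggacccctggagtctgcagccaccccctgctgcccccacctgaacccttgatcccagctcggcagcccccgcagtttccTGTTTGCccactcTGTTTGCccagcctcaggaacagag
Apoa2: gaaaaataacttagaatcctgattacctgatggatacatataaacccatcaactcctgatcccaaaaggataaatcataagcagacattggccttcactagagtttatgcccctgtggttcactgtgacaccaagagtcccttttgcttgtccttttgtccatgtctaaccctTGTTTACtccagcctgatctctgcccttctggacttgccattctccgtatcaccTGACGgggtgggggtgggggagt
Apoa5: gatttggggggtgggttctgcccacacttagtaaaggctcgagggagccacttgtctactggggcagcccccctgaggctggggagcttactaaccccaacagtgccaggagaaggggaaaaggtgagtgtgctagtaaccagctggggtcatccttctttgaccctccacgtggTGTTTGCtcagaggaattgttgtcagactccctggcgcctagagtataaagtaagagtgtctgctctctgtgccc
Apob: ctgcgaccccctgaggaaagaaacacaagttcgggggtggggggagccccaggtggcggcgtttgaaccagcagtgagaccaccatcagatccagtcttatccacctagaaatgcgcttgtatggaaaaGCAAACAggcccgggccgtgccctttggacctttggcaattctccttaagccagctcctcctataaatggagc

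Over the 250 bases before each RefSeq start, 5 of the 8 members with an entry (Apoa1, Apoa2, Apoa5, Apob and Apoh) held TGTTTAC or TGTTTGC, compared with 8.22% of all 27025 genes with an entry. The full cAMP response element TGACGTCA, the element bound by CREB, was found in 0 of the 8, compared with 1.77% of all genes. The core TGACG was found in Apoa2 alone, compared with 19.8% of all genes. TATAAA was found in 4 of the 8 (Apoa2, Apoa5, Apob and Apoe) and in 14.3% of all genes. The nuclear receptor motif AGGTCA was found in Apoa2 and Apoh and in 15.8% of all genes. These matches describe the letters of the windows only.

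Library totals ranged from 16560087 to 19721478 gene counts. Crtc1 was not lower in the liver libraries labelled Crtc1-/-, and in eWAT 1 of the 2 was above and the other below Crtc1+/+. Its level in CPM (counts per 1000000 counts of the library total) was 11.6 and 9.61 in Crtc1+/+ liver, 22.1 and 18.6 in Crtc1-/- liver, 36.9 in both Crtc1+/+ eWAT libraries, and 57.6 and 27.5 in Crtc1-/- eWAT. Counts over the whole gene include exons outside the targeted part, so they do not check the deletion, and the genotypes below are those of the labels. The 15 epididymis markers held 7.67% and 8.94% of the counts in the eWAT libraries labelled Crtc1+/+ and at most 0.00234% in those labelled Crtc1-/-. The 13 adipocyte markers held 0.262% and 0.400% in the former and 4.67% and 2.22% in the latter. The library eWAT Crtc1-/- 2 stood apart from the other eWAT libraries in its hepatocyte markers. Its 15 hepatocyte markers held 8.91% of counts, compared with 0.121% to 0.574% in the other 3 eWAT libraries and 16.5% to 19.5% in liver. Without Cyp2e1, which fat also expresses, these shares were 8.21%, 0.0674% to 0.509% and 15.5% to 18.6%. The eWAT results on the 10 members are therefore given with and without that library.

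**Figure D1:**
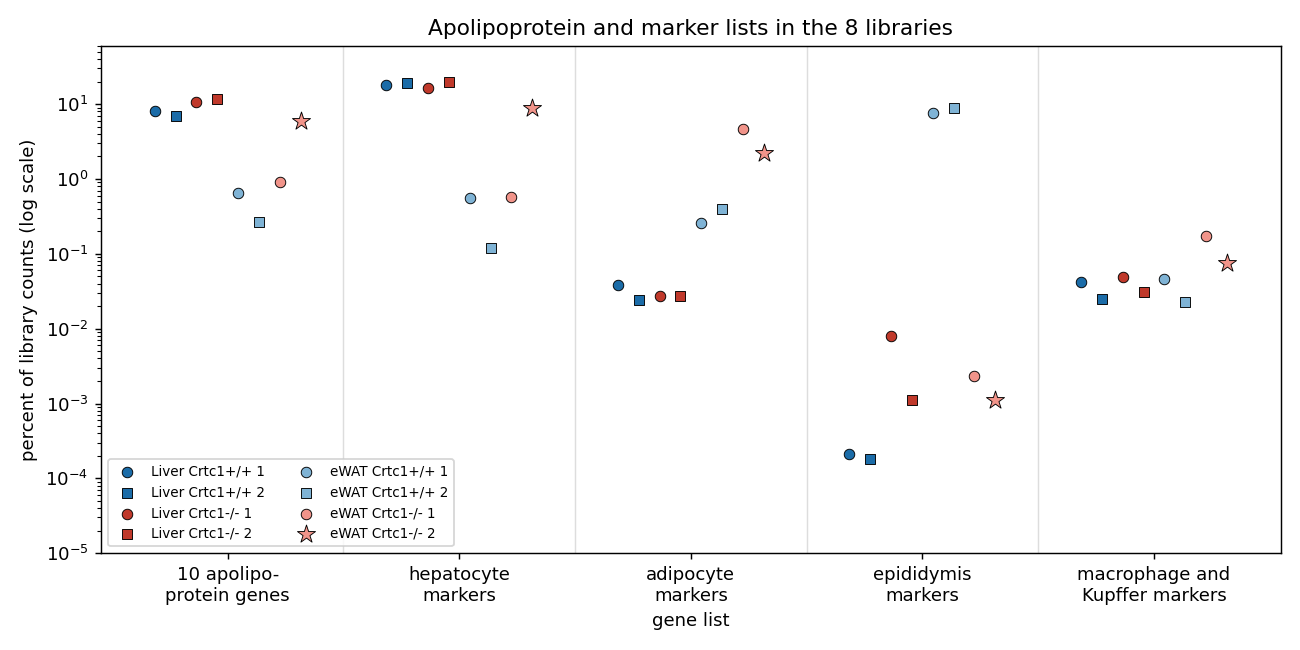
Percent of library counts (log axis) held by the 10 apolipoprotein genes and by 4 marker lists, with 1 point per library. The star, eWAT Crtc1-/- 2, is the eWAT point nearest to the liver points, though below them, for the apolipoproteins (5.87%) and hepatocyte markers (8.91%). Both eWAT Crtc1+/+ libraries lie at 7.67% and 8.94% for the epididymis markers.

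The 10 members together held 8.11% and 6.96% of all counts in liver Crtc1+/+ and 10.8% and 11.6% in liver Crtc1-/-. In eWAT they held 0.660% and 0.267% in Crtc1+/+, 0.920% in Crtc1-/- 1 and 5.87% in Crtc1-/- 2. The Wilson 95% interval of the lowest share, in eWAT Crtc1+/+ 2, was 0.265% to 0.269%, and such intervals cover counting error only. Without Apoe the shares in eWAT dropped to 0.220%, 0.0257%, 0.0708% and 3.21% in the same order. Apoe alone made up 38.5% to 49.0% of the members' counts in liver, 66.7% and 90.4% in eWAT Crtc1+/+, 92.3% in eWAT Crtc1-/- 1 and 45.4% in eWAT Crtc1-/- 2. The eWAT library with the total nearest to liver thus also had a share of Apoe within the range of liver.

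Levels of different genes were compared per transcript length, in FPKM. In liver Crtc1+/+ the order of mean FPKM (± SD, n = 2) was Apoe (31974 ± 4838), Apoa2 (27999 ± 5491), Apoa1 (20152 ± 210), Apoc1 (13775 ± 684) and Apoc3 (5916 ± 291). Apoh (1876 ± 68.0), Apoa4 (1352 ± 251), Apoa5 (761 ± 155), Apom (279 ± 8.58) and Apob (55.6 ± 6.90) followed. Only the neighbours Apoe and Apoa2 overlapped between their libraries. In liver Crtc1-/- Apoa2 (51756 ± 8325 FPKM) ranked above Apoe (39530 ± 847 FPKM) without overlap, and the pairs Apoa1 and Apoc1, and Apoh and Apoa4, overlapped. In eWAT Crtc1+/+ Apoe again ranked first, at 3033 ± 1242 FPKM, and its libraries did not overlap those of Apoc1 (1039 ± 799 FPKM). All later neighbours in that order overlapped.

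**Figure D2:**
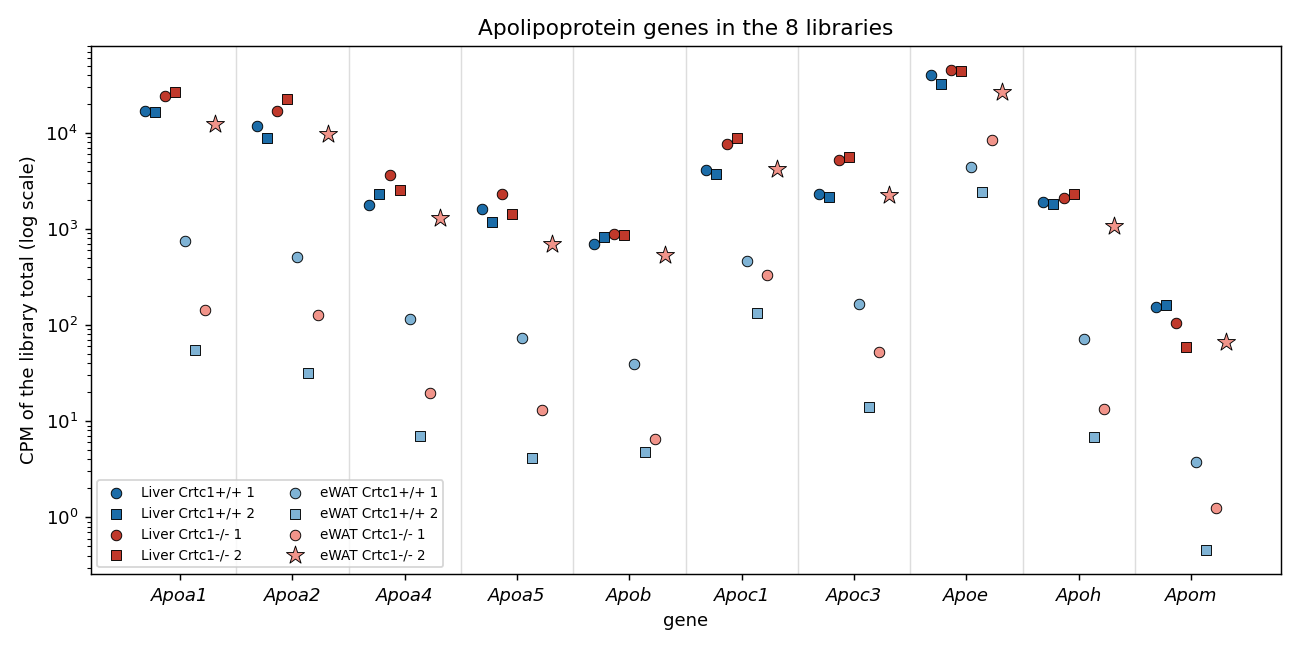
CPM of the library total (log axis) of each apolipoprotein gene, with 1 point per library and eWAT Crtc1-/- 2 drawn as a star. The star lies closer to the liver points than the other 3 eWAT libraries for every gene, between 67.0 CPM (Apom) and 26682 CPM (Apoe). The other 3 eWAT libraries lie far below liver, with the smallest gap for Apoe.

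The comparison of genotypes in liver asked whether loss of Crtc1 went with a change in the liver's output of apolipoprotein mRNA. No member passed an adjusted p of 0.05 in edgeR's quasi-likelihood test, where 0.0854% of the 11707 genes tested did (10 genes). At an unadjusted p of 0.05, 4 members passed, where 17.3% of genes did: Apoa2, Apoc1 and Apoc3 were higher and Apom was lower in Crtc1-/-. DESeq2 called 2 members, Apoc1 and Apoc3, and 2.66% of genes, and limma on quantile-normalized FPKM called none. After scaling by TMM (trimmed mean of M values), 7 of 10 members were higher in both Crtc1-/- libraries than in either Crtc1+/+ library, a state found in 25.8% of all genes tested. Apom was lower in both, as 26.4% of genes were, and Apoa5 and Apob overlapped. The members' median log2 fold change was 0.45, compared with 0.00 over all genes tested.

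Among the HDL proteins, Apoa1, the main HDL protein and activator of lecithin-cholesterol acyltransferase, was at 24176 and 26920 CPM in liver Crtc1-/- and at 17035 and 16684 CPM in liver Crtc1+/+. The groups did not overlap. Its log2 fold change of 0.54 ± 0.25 (SE) did not pass edgeR's test (adjusted p = 0.303). Apoa2, the other structural HDL protein, was at 17051 and 22434 CPM compared with 11812 and 8811 CPM. Both Crtc1-/- libraries were again higher, with a log2 fold change of 0.88 ± 0.28 and an adjusted p of 0.198 in edgeR. Apom, a small lipocalin that carries sphingosine-1-phosphate on HDL, went the other way, with 105 and 58.8 CPM in Crtc1-/- and 155 and 160 CPM in Crtc1+/+. Both Crtc1-/- libraries were below both Crtc1+/+ libraries but differed from each other by more than the Crtc1+/+ pair. The log2 fold change of Apom was -0.99 ± 0.32 (edgeR, adjusted p = 0.203).

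Apoc3, an inhibitor of lipoprotein lipase and of the uptake of triglyceride-rich remnants, differed most. It was at 5174 and 5549 CPM in liver Crtc1-/- and at 2312 and 2129 CPM in liver Crtc1+/+. The groups were well separated, and the log2 fold change was 1.22 ± 0.25, with an unadjusted p of 0.000774 and an adjusted p of 0.119 in edgeR. Apoc1, which also slows lipoprotein lipase and remnant uptake, was at 7715 and 8925 CPM compared with 4062 and 3717 CPM. It did not overlap either, with a log2 fold change of 1.04 ± 0.25 (edgeR, adjusted p = 0.134). Under the rule the study used (log2 fold change above 1 or below -1, and p below 0.01 before adjustment), Apoc1 and Apoc3 were the 2 members that passed, where 2.84% of all genes passed in the higher direction. In DESeq2 the adjusted p was 0.00519 for Apoc1 and 0.000373 for Apoc3. Without the filter on low counts edgeR gave them 0.0237 and 0.0103, and called 1.89% of genes.

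Apoa4, made by the intestine and, in mice, also by the fasted liver, was at 3612 and 2566 CPM in Crtc1-/- and at 1783 and 2313 CPM in Crtc1+/+. The lower Crtc1-/- library stood just above the higher Crtc1+/+ library, and the log2 fold change of 0.54 ± 0.29 had an adjusted p of 0.357 in edgeR. Apoa5, an activator of triglyceride lipolysis, was at 2308 and 1418 CPM compared with 1600 and 1196 CPM, so its groups overlapped. Its log2 fold change was 0.37 ± 0.31 (edgeR, adjusted p = 0.562), and without liver Crtc1-/- 1 it was -0.044. Apob was at 879 and 864 CPM compared with 698 and 832 CPM, which did not overlap in CPM of the library total but did after TMM scaling. The log2 fold change of Apob was 0.13 ± 0.25, with an adjusted p of 0.810 in edgeR, and -0.0089 without liver Crtc1+/+ 1.

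Apoe, the ligand for remnant uptake, was at 45161 and 44491 CPM in liver Crtc1-/- and at 39788 and 31950 CPM in liver Crtc1+/+. The Crtc1-/- libraries were higher, with a log2 fold change of 0.27 ± 0.26 (edgeR, adjusted p = 0.620), and the direction turned to -0.29 in limma on quantile-normalized FPKM, where Apoa2 was at 0.29 and Apoa1 at 0.00. Apoh, a plasma protein that binds phospholipid surfaces, was at 2120 and 2328 CPM compared with 1897 and 1807 CPM. This narrow separation gave a log2 fold change of 0.21 ± 0.24 and an adjusted p of 0.681 in edgeR. Albumin, the hepatocyte's most abundant secreted protein, had a log2 fold change of -0.11 in the same fit, and 12 of the 15 hepatocyte markers had a fold change below 0, with a median of -0.32.

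Single libraries decided how many members passed in liver. Without liver Crtc1-/- 1, edgeR called 4 members (Apoa2, Apoc1 and Apoc3 higher, Apom lower) among 1507 genes (12.5%), and without liver Crtc1-/- 2 it called Apoc3 among 175 genes (1.46%). Without Crtc1+/+ 1 or Crtc1+/+ 2 no member was called, among 45 genes and 1 gene. Fits that leave out a library assume that the lone sample varies like the other group. Across these 4 fits Apoc3, Apoc1, Apoa2 and Apom kept their directions.

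**Figure D3:**
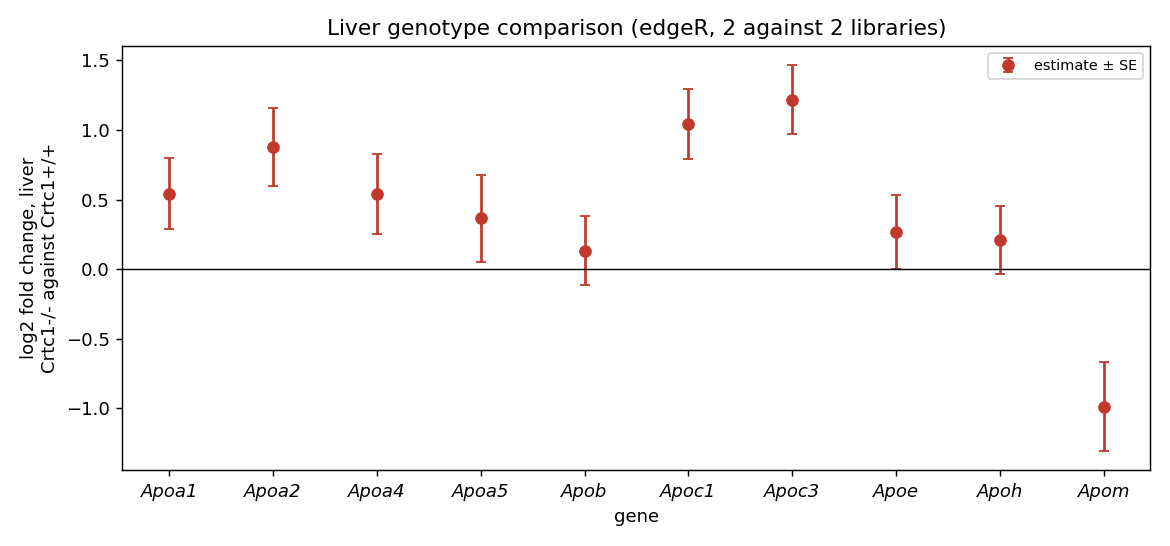
Log2 fold change in liver, Crtc1-/- against Crtc1+/+, of each apolipoprotein gene (points, edgeR estimate with TMM scaling; bars, SE; 2 against 2 libraries). Apoc3 (1.22) and Apoc1 (1.04) are the highest, Apom (-0.99) is the only one below 0, and the bars of Apob and Apoh cross 0.

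Ratios between neighbouring genes in the same library need no scaling. Apoc3 and Apoa1 are 2 genes of the chromosome 9 cluster. In liver there were 0.214 and 0.206 Apoc3 counts per Apoa1 count in Crtc1-/- and 0.136 and 0.128 in Crtc1+/+, a mean ratio 1.60 times as high with no overlap. Apoc1 and Apoe, the neighbours on chromosome 7, showed 0.171 and 0.201 Apoc1 counts per Apoe count compared with 0.102 and 0.116, 1.70 times as high with no overlap. By contrast, Apoa4 per Apoa1 was 0.149 and 0.0953 in Crtc1-/- and 0.105 and 0.139 in Crtc1+/+, which overlapped. Apoa5 per Apoa1 also overlapped (0.0955 and 0.0527, compared with 0.0939 and 0.0717). Apom per Apoa1 was 0.00436 and 0.00218 compared with 0.00908 and 0.00959. Apoa2 per Apoa1 was 0.705 and 0.833 compared with 0.693 and 0.528, 1.26 times as high with no overlap. So within the same libraries Apoc3, Apoc1 and, by a narrow margin, Apoa2 were higher, and Apom lower, relative to another member. For ratios that do not overlap, the exact two-sided permutation test of 2 against 2 libraries gives p = 0.333, the smallest this design allows.

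In Crtc1+/+ mice every member was lower in eWAT than in liver. All 10 passed an adjusted p of 0.05 in edgeR, in the lower direction, where 23.1% of the 15034 genes tested did. The log2 fold changes, eWAT against liver, ranged from -7.70 ± 0.94 for Apom to -4.88 ± 0.85 for Apoe, and the median was -6.65, compared with 0.48 over all genes. Scaling by library size put the median of all genes at 1.96 and that of the members at -5.14, and all 10 stayed called. The 15 hepatocyte markers were also all called lower, with a median of -7.34. Fewer cells of a type and less RNA per cell cannot be told apart in such bulk samples.

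The 2 eWAT Crtc1+/+ libraries differed widely in 8 members and in Alb, the albumin gene. Apoa1 was at 751 and 54.5 CPM, Apoa2 at 515 and 31.9 CPM and Apoc3 at 167 and 14.1 CPM. Apoa4 (116 and 6.98 CPM), Apoa5 (73.1 and 4.14 CPM), Apoh (72.0 and 6.93 CPM), Apob (39.3 and 4.77 CPM) and Apom (3.77 and 0.454 CPM) behaved alike, with Crtc1+/+ 1 the higher library each time. Alb was at 3131 and 461 CPM in the same libraries, so it moved with these members. Apoc1 (460 and 133 CPM) and Apoe (4404 and 2412 CPM) differed less. The lowest of these values, Apom in Crtc1+/+ 2, rested on 8 counts.

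The library eWAT Crtc1-/- 2 carried the members at levels closer to those of liver than the other eWAT libraries, but below the liver Crtc1-/- means. Against the mean of liver Crtc1-/-, the members in this library stood at 37.2% (Apoa5) to 81.7% (Apom) in CPM of the library total, with a median of 48.8%. Alb stood at 47.4% in that library. With TMM scaling over all 8 libraries the range was 20.2% to 44.2% and the median 26.6%, beside 25.9% for Alb. FPKM gave a median of 48.7%. The other Crtc1-/- library ranged from 0.567% to 18.9% in CPM of the library total, with a median of 0.729%, and Apoe was the member at 18.9%. Alb was at 0.455% in that library.

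Counts per 1000 Alb counts do not depend on scaling between libraries. In eWAT Crtc1-/- 2, 7 of the 10 members had a ratio to Alb within the range of the 4 liver libraries. The other 3, Apoa2 (180.3 per 1000, liver 70.9 to 179.7), Apob (9.99, liver 6.38 to 9.26) and Apoe (499, liver 257 to 476), were just above it. Among the other 14 hepatocyte markers 11 were within that range. In eWAT Crtc1+/+ 1, 6 members were within the liver range and 4 above it, and 13 of the other 14 hepatocyte markers were within it. The other eWAT libraries held to it less. In Crtc1+/+ 2, 3 members were within, 3 above and 4 below, and in Crtc1-/- 1 only Apoa4 was within and 9 were above. Of the other 14 hepatocyte markers, 4 and 9 were within in those libraries. Apoa1 shows the size of these departures. It stood at 134 to 255 per 1000 in liver and at 240, 118, 282 and 230 per 1000 in eWAT Crtc1+/+ 1, Crtc1+/+ 2, Crtc1-/- 1 and Crtc1-/- 2. Thus the 225-fold range of Apoa1 in eWAT CPM became 118 to 282 per 1000 Alb counts.

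Apoe and Apoc1 departed much further from the liver ratio to Alb. Apoe stood at 257 to 476 per 1000 Alb counts in liver but at 1407 and 5229 in eWAT Crtc1+/+ and at 16553 in eWAT Crtc1-/- 1, up to 34.8 times the highest liver value. Apoc1 stood at 29.9 to 81.3 per 1000 in liver, at 147 and 288 in eWAT Crtc1+/+ and at 642 in eWAT Crtc1-/- 1. Apoc3 in eWAT Crtc1-/- 1 was at 103 per 1000, compared with at most 54.5 in liver. The 13 macrophage and Kupffer cell markers held 0.0468% and 0.0231% of counts in eWAT Crtc1+/+, 0.171% in Crtc1-/- 1 and 0.0748% in Crtc1-/- 2. Macrophage and adipocyte marker levels were thus both highest in the library with the highest Apoe per Alb count. The other eWAT libraries did not keep this order. Crtc1+/+ 2, next in Apoe per Alb count (5229), had the lowest macrophage share (0.0231%). Crtc1-/- 2, lowest in Apoe per Alb count (499), had macrophage and adipocyte shares (0.0748% and 2.22%) above both Crtc1+/+ libraries. The part of these markers in the Apoe values was not tested.

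**Figure D4:**
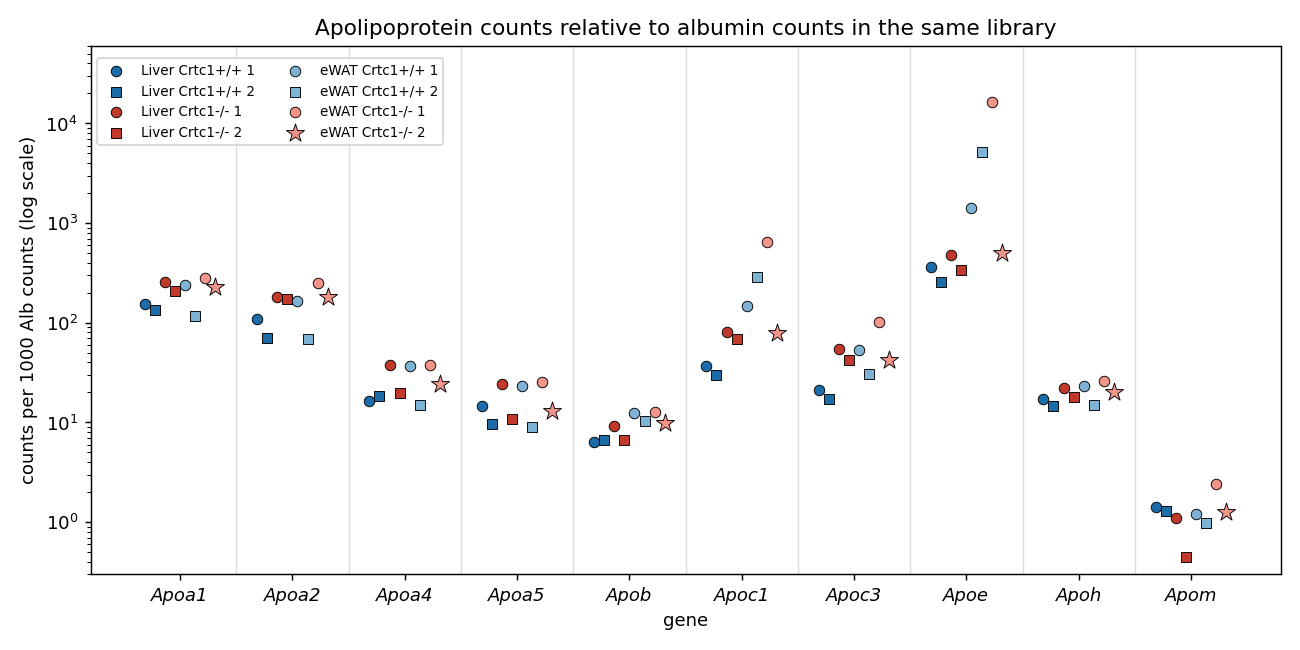
Counts of each apolipoprotein gene per 1000 Alb counts of the same library (log axis), with 1 point per library and eWAT Crtc1-/- 2 drawn as a star. In eWAT Crtc1-/- 2, 7 of 10 genes lie within the range of the liver points, whereas in Crtc1-/- 1 9 lie above it, with Apoe at 16553 and Apoc1 at 642 farthest out, and in Crtc1+/+ 2 only 3 lie within it.

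The comparison of genotypes in eWAT addressed the same question in fat. With all 4 libraries every member had a higher mean in Crtc1-/-, with log2 fold changes from 2.76 ± 0.96 (Apoe) to 4.62 ± 2.35 (Apoa2), and none passed edgeR's test at an adjusted p of 0.05, where 12.2% of 15391 genes did. Apoe passed at an unadjusted p of 0.05, as did 33.3% of genes (edgeR, adjusted p = 0.123). DESeq2 called Apoe and Apoc1, where it called 30.0% of genes, and limma on quantile-normalized FPKM called Apoe, where it called 17.9%. After TMM scaling Apoe was the 1 member of 10 without overlap between the groups, all higher in Crtc1-/-, a state found in 31.3% of genes. For the other 9 members eWAT Crtc1-/- 2 was the highest eWAT library, and Crtc1-/- 1 lay between the levels of the Crtc1+/+ pair. For example, Apoa1 was at 145 and 12278 CPM in Crtc1-/- and at 751 and 54.5 CPM in Crtc1+/+.

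Without eWAT Crtc1-/- 2 the direction turned for 8 of the 10 members. Their log2 fold changes were then between -1.52 ± 1.19 (Apob) and -0.55 ± 1.43 (Apom), and none of them passed the test. Apoe stayed higher, at 8490 CPM in the remaining Crtc1-/- library compared with 4404 and 2412 CPM in Crtc1+/+, with a log2 fold change of 1.49 ± 0.35 and an adjusted p of 0.0527 in edgeR. Apoc1 (329 CPM, compared with 460 and 133 CPM) had a log2 fold change of 0.35 ± 0.65. Without eWAT Crtc1-/- 1 instead, edgeR called 8 members, all but Apoa4 and Apoa5, and 19.0% of genes. Without either Crtc1+/+ library it called no member and no gene. The value of Apoe was positive with and without each eWAT library, but its size ranged from 1.49 to 3.43 in the fits without 1 or the other Crtc1-/- library. The marker lists moved with it. The adipocyte markers were called higher for 10 of 13 genes and the epididymis markers lower for 15 of 15 in the same comparison, and their part in the Apoe result was not tested.

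**Figure D5:**
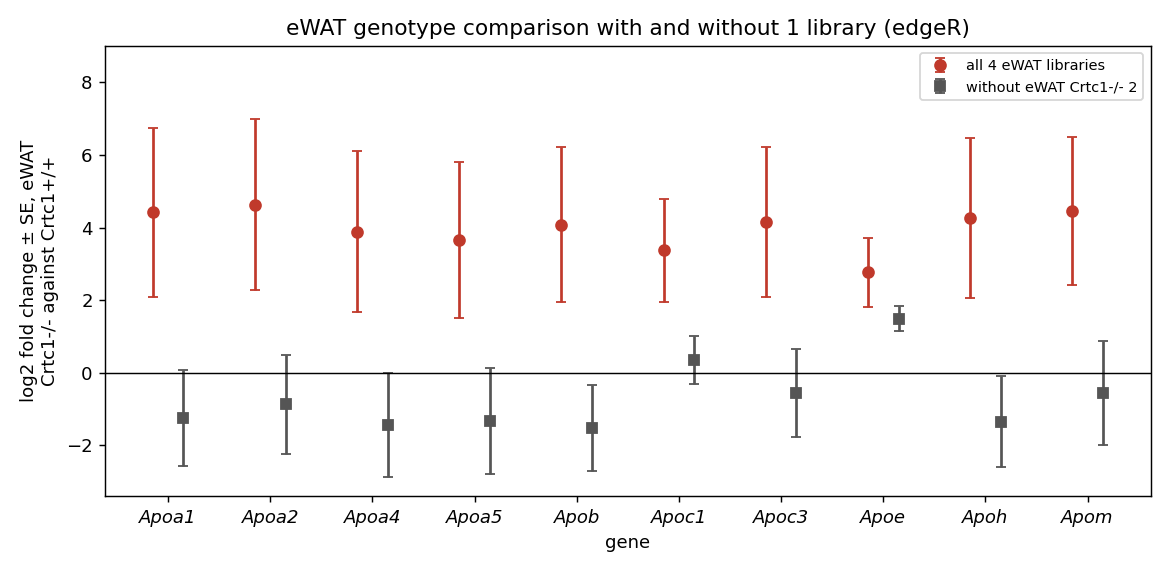
Log2 fold change ± SE in eWAT, Crtc1-/- against Crtc1+/+, from edgeR with all 4 libraries (circles) and without eWAT Crtc1-/- 2 (squares). All circles lie above 0, between 2.76 and 4.62. Of the squares Apoe (1.49) and Apoc1 (0.35) lie above 0 and the other 8 lie below it.

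In mice labelled Crtc1-/- the members were lower in eWAT than in liver by 2.17 (Apom) to 3.30 (Apoa5) on the log2 scale, as fitted fold changes of -2.17 ± 1.67 and -3.30 ± 1.85. None passed edgeR's test, at an adjusted or an unadjusted p of 0.05, where 18.5% of 13458 genes passed the former, and DESeq2 called none. All 10 were lower without overlap after TMM scaling, as were 35.2% of genes, although Apom in CPM of the library total was higher in eWAT Crtc1-/- 2 (67.0) than in liver Crtc1-/- 2 (58.8). Without eWAT Crtc1-/- 2 all 10 members passed, with log2 fold changes from -8.83 ± 0.76 (Apoa1) to -3.76 ± 0.60 (Apoe), where 44.4% of genes passed, and without eWAT Crtc1-/- 1 all but Apom passed (9 of 10), where 22.3% of genes did. The test of the difference between tissues in the genotype effect (interaction) called no member, where 6.94% of 15587 genes were called, and 1 member, Apom, passed at an unadjusted p of 0.05, as did 26.9% of genes. DESeq2 and limma called Apoe in the interaction, where they called 13.2% and 19.0% of genes. All 10 interaction values were positive with all libraries (2.33 for Apoc1 to 5.45 for Apom), and 8 were negative without eWAT Crtc1-/- 2, the exceptions being Apoe (1.20) and Apom (0.36). Without eWAT Crtc1-/- 1, 3 members (Apob, Apoh and Apom) were called in the interaction, where 13.9% of genes were. These comparisons share libraries with the genotype comparisons above.

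Among the other apolipoprotein genes, 0 of 5 tested passed in liver (edgeR, with 1 at an unadjusted p of 0.05, and 0 in DESeq2). Apoc4, next to Apoc1 and Apoe on chromosome 7, was at 2784 and 4245 CPM in liver Crtc1-/- and at 2086 and 1648 CPM in Crtc1+/+ (log2 fold change 0.85 ± 0.29), and its annotation shares a readthrough gene with Apoc2. Clu, or clusterin, a secreted chaperone also carried on HDL, had a log2 fold change of -0.62 ± 0.31 there. In eWAT 2 of 6 were called, both lower (2 at an unadjusted p of 0.05, and 2 in DESeq2). Of all genes tested 12.2% were called (33.3% and 30.0%). The log2 fold changes were -4.15 for Clu and -2.18 for Apod, and -5.23 and -1.81 without eWAT Crtc1-/- 2. Clu was at 345 and 903 CPM in Crtc1-/- and at 14392 and 14316 CPM in Crtc1+/+, and Apod at 51.1 and 22.2 CPM compared with 238 and 163 CPM. Clusterin is abundant in epididymal epithelium, and the epididymis markers moved with it. The part of these markers in the Clu and Apod falls was not tested.

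The genes for lipoprotein assembly and secretion gave 0 calls among 7 tested in liver and 0 among 6 in eWAT (edgeR, with 2 and 1 at an unadjusted p of 0.05, and 0 and 1 in DESeq2). P4hb, the partner subunit of the microsomal triglyceride transfer protein that loads lipid onto Apob, had a log2 fold change of -0.14 ± 0.28 in liver and -0.25 ± 0.49 in eWAT (-0.87 ± 0.30 without eWAT Crtc1-/- 2, adjusted p = 0.141 in edgeR). Surf4, the cargo receptor that exports lipoproteins from the endoplasmic reticulum, had -0.26 ± 0.25 and -0.18 ± 0.31. The genes of HDL formation and remodelling gave 0 of 8 calls in liver (2 at an unadjusted p of 0.05, and 1 in DESeq2). There the enzymes acting on Apoa1-carrying HDL, Lcat and Pon1, had log2 fold changes of 0.12 ± 0.25 and 0.20 ± 0.24. Larger differences in liver were those of Lipg (-1.70 ± 0.45, adjusted p = 0.155 in edgeR) and Pltp. Pltp was at 110 and 67.8 FPKM in Crtc1-/- and at 34.4 and 20.3 FPKM in Crtc1+/+. In eWAT 3 of 8 were called (4 at an unadjusted p of 0.05, and 4 in DESeq2), where 12.2% of all genes tested were (33.3% and 30.0%). The HDL receptor Scarb1 (1.92 ± 0.35) and the sterol exporter Abcg1 (1.68 ± 0.27) rose, and endothelial lipase, Lipg, fell by 4.41 on the log2 scale. Without eWAT Crtc1-/- 2 the log2 fold changes were 2.12 (Scarb1), 1.54 (Abcg1) and -4.46 (Lipg). Leaving out that library does not address the epididymis markers, which held 7.67% and 8.94% of counts in the Crtc1+/+ libraries. With all 4 libraries 15 of 15 epididymis markers were called lower and 10 of 13 adipocyte markers higher. Their part in these 3 changes was not tested.

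Of the receptors and their regulators, 0 of 9 tested passed in liver (2 at an unadjusted p of 0.05, 0 in DESeq2), and the remnant receptors Lrp1 and Lsr had log2 fold changes of -0.30 ± 0.26 and -0.17 ± 0.25. In eWAT 2 of 10 tested were called, both higher (5 at an unadjusted p of 0.05, and 5 in DESeq2). They were Lrp1, which takes up Apoe-bearing remnants (2.11 ± 0.35), and Mylip, which targets lipoprotein receptors for degradation (1.88 ± 0.34). Of the 10, 4 had a log2 fold change above 0 and 6 below. Mylip was no longer called without eWAT Crtc1-/- 2 (adjusted p = 0.0555 in edgeR), whereas Lsr, at -0.17 ± 0.75 with all libraries, was then called lower (-1.78 ± 0.34, adjusted p = 0.0317 in edgeR). Lpl, the lipase that Apoc3 inhibits, was the 1 called gene of 6 in its list in liver, at 38.5 and 39.8 CPM in Crtc1-/- and 7.45 and 8.12 CPM in Crtc1+/+ (2.27 ± 0.26, adjusted p = 0.0332 in edgeR), and it was not called without either Crtc1+/+ library. In eWAT its endothelial anchor Gpihbp1 (4.83 ± 0.45) and its inhibitor Angptl4 (4.89 ± 0.66) rose, and Lpl itself had 2.44 ± 0.55 with an adjusted p of 0.0519 in edgeR (0.0399 without eWAT Crtc1-/- 2). Among 16 transcription factors known to act on apolipoprotein genes, none passed in liver (1 at an unadjusted p of 0.05, and 1 in DESeq2). Hnf4a and Cebpa had -0.52 ± 0.25 and 0.09 ± 0.28 there. In eWAT 4 of 14 tested were called, all higher (6 at an unadjusted p of 0.05, and 9 in DESeq2). Of all genes tested 12.2% were called (33.3% and 30.0%). All 14 had a log2 fold change above 0, with a median of 3.25. Without eWAT Crtc1-/- 2 the median was 0.52, and 8 of 14 tested were above 0. Of the called factors, Nr1h3, the oxysterol receptor LXR alpha that drives Apoe in fat and macrophages, had 3.41 ± 0.37. Cebpa had 3.10 ± 0.35 and Nr1d1 2.45 ± 0.33. The other, Foxo1, had 1.46 ± 0.29 and was not called without eWAT Crtc1-/- 2 (adjusted p = 0.0880 in edgeR). These rises in eWAT moved with the adipocyte markers (10 of 13 called higher) and the macrophage and Kupffer cell markers (3 of 13 called higher). The part of those markers in the rises was not tested. Every call of these lists in eWAT was lost without Crtc1+/+ 1, without Crtc1+/+ 2 and with the replicate number as a block, where edgeR called 0 genes in all (3436, 2565 and 5418 at an unadjusted p of 0.05).

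The genes whose profile over the 8 libraries was most like each member were named by the smallest root mean square difference of centred log2 CPM, among 7755 genes. Apoa1 was nearest to Prodh2 (0.17), Ttr (0.21) and Hpd (0.22), an amino acid catabolic enzyme, the plasma carrier of thyroxine and another amino acid catabolic enzyme. Apoh was nearest to F10, the clotting factor (0.10), Hpd (0.11) and Ahsg (0.14). Apob lay nearest to Cyp2a12 (0.10), Azgp1 (0.13) and Cfhr2 (0.18), and Apoa5 to Hpx, the haem-binding plasma protein (0.12), Prodh2 (0.23) and Agxt (0.25). Apoa4 lay nearest to Sds (0.19), Prodh2 (0.21) and Kng1 (0.24), Apoa2 to Ttc36 (0.23), Prodh2 (0.28) and Apcs (0.34), and Apoc3 to Ttc36 (0.19), Ces1g (0.28) and Spp2 (0.29). Prodh2 thus stood among the 3 nearest genes of 4 members. Apom was nearest to Creb3l3, a liver transcription factor (0.26), Kynu (0.26) and Sgk2 (0.26), and Apoc1 to Ttpa (0.31), Ang (0.34) and Gchfr (0.34). Apoe was nearest to Sdsl (0.10), Tmem150a (0.15) and Tst (0.19). These distances describe the 8 libraries, which share depth, processing and the high hepatocyte level of 1 eWAT library.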

How the data were processed

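Total RNA from liver and eWAT was extracted with Trizol and sequenced at BGI. The authors aligned the reads to GRCm38.p6, and the submitters' processing notes name HISAT and Bowtie2. The counting program, its strand setting and the annotation are not given in the sources used here. The deposited table holds 1 estimated count per gene and library, not normalized, of which 5.44% to 9.98% per library were not whole, and the authors' FPKM (fragments per transcript length and library size) of the same libraries. Groups were taken from the labels. The 10 members and all gene lists were chosen with earlier results of these data known, and 1 gene of the receptor list is not reported here.

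Estimated counts were rounded and tested with edgeR 4.0.16 (quasi-likelihood, TMM scaling, low count filter, Benjamini-Hochberg over all genes) on the libraries of each comparison in R 4.3.3, after a check on simulated data. DESeq2 1.42.0 and limma 3.58.1 on quantile-normalized log2(FPKM + 1) for genes with FPKM of at least 1 in at least 2 libraries, were alternatives, as were a pseudocount of 0.1, no filter, other scalings, a replicate block, all 8 libraries in 1 fit and leaving out each library. Values are mean ± SD, or log2 fold change ± SE. With 2 libraries a group, p-values rest on few degrees of freedom. Library totals of 16560087 to 19721478 put 3 counts at 0.152 to 0.181 CPM. Named besides the members were Crtc1, Alb, the summed marker lists and, of each other list and genotype comparison, up to 3 called genes of largest fold change or, where none was called, the 2 with the highest mean CPM. Foxo1 in eWAT and Cyp2e1 were added after their values were seen, as were Lpl and Lsr in eWAT, and Lipg and Pltp in liver. For each member the 3 non-member genes of nearest profile, with a mean log2 CPM of at least 3, are named. Positions and promoters came from RefSeq. Tables were handled in Python 3.11.15 with pandas 2.3.3, Wilson 95% intervals computed with statsmodels 0.14.6, and plots drawn with matplotlib 3.10.9.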

Additional observations from a re-analysis of the deposited data

Results flagged for a closer look

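The genotype effect differed between eWAT and liver by a test of the difference itself (edgeR's interaction term, adjusted over all 15587 genes tested) for 6 named genes of the lipoprotein lists, none of them one of the 10 apolipoprotein genes above. The log2 fold change in eWAT minus that in liver was 3.69 for Gpihbp1 (adjusted p = 0.0128 in edgeR), 3.34 for Nr1h3 (0.0141) and 5.24 for Angptl4 (0.0141). It was 2.92 for Cebpa (0.0238) and 2.35 for Lrp1 (0.0465). For Apod, which is at most at 0.483 CPM in liver, it was -4.03 (0.0279). These calls rest on few libraries. None of the 6 was called without liver Crtc1+/+ 1 (0 genes called in all, 2909 at an unadjusted p of 0.05), liver Crtc1+/+ 2 or liver Crtc1-/- 1. Gpihbp1 alone was called without liver Crtc1-/- 2, Angptl4 and Nr1h3 without eWAT Crtc1+/+ 1, and Angptl4 alone without eWAT Crtc1+/+ 2, whereas all 6 were called without either eWAT Crtc1-/- library. Lrp1 was also not called with another scaling, without the low count filter or with the replicate block. The adipocyte and epididymis marker shares differ between the same eWAT groups, and their part in these differences was not tested.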

How the results depend on the processing

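Few libraries limit all calls. In liver, DESeq2 called 311 genes and 2 members, and edgeR without the low count filter 301 genes and 2 members. The limma fits with a pseudocount of 0.1 or without the filter called 0 genes (1436 and 2229 at an unadjusted p of 0.05), as did 1 fit of all 8 libraries (1536). In eWAT, DESeq2 called 4620 genes and 2 members, the fit of all 8 libraries 3861 genes, and each of the 3 limma fits 1 member. Between tissues in Crtc1+/+, limma without the filter called 6 members. Between tissues in Crtc1-/-, DESeq2 called 6510 genes, library size scaling 5721, limma 1304 (pseudocount 1), 1490 (pseudocount 0.1) and 91 (no filter), and the fit of all 8 libraries 4330. In the interaction, DESeq2 called 2056 genes and 1 member, library size scaling 705 genes, and the 3 limma fits 2538, 2483 and 2378 genes with 1 member each. The cause of these differences was not tested. Apoe in liver turned to -0.29 in all 3 limma fits. Quantile normalization gives the highest-ranked genes the same values in each library, so by construction the rank change of Apoe and Apoa2 gave values of equal size and opposite sign.

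The libraries share replicate numbers, but the numbers are not known to mark the same mouse. Deviations from the group means of same-numbered libraries had correlations across genes of 0.0735 (liver), -0.0912 (eWAT), 0.261 (Crtc1+/+, between tissues) and 0.00775 (Crtc1-/-, between tissues). These were taken over 9519, 12888, 11308 and 10976 genes in that order, with 2 pairs of libraries each. With the replicate number as a block, edgeR called 82 genes in liver, 0 in eWAT (5418 at an unadjusted p of 0.05), 1296 between tissues in Crtc1-/- and 1746 in the interaction. The block changed no call of a member.

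Leaving out 1 library at a time gave 1 to 1507 genes and 0 to 4 members in liver, 0 to 3073 genes and 0 to 8 members in eWAT, and 5262 to 9534 genes with 10 members each time between tissues in Crtc1+/+. It gave 0 to 6512 genes and 0 to 10 members between tissues in Crtc1-/-, and 0 to 2261 genes and 0 to 3 members in the interaction. Log2 fold changes that turned direction in liver ranged from -0.044 to 0.68 for Apoa5 and from -0.0089 to 0.27 for Apob. In eWAT they ranged from -1.25 to 7.36 (Apoa1), -0.87 to 7.79 (Apoa2), -1.43 to 7.09 (Apoa4), -1.33 to 6.94 (Apoa5), -1.52 to 6.35 (Apob), -0.56 to 6.89 (Apoc3), -1.35 to 6.84 (Apoh) and -0.55 to 6.73 (Apom). In the interaction they ranged from -1.89 to 6.74 (Apoa1), -1.85 to 6.83 (Apoa2), -2.07 to 6.47 (Apoa4), -1.80 to 6.49 (Apoa5), -1.74 to 6.14 (Apob), -0.75 to 3.47 (Apoc1), -1.87 to 5.60 (Apoc3) and -1.65 to 6.55 (Apoh). In eWAT and the interaction each lowest value came from the fit without eWAT Crtc1-/- 2.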
